A study of Mus musculus with 9 samples.

Results

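The genes described here make sterols and fatty acids, sense the sterol level of the cell, or answer to it. They were given by name as 35 genes and are grouped here by role. The groups are 7 enzymes of the mevalonate and isoprenoid steps, 11 enzymes of the squalene and sterol steps, 6 genes for the SREBP transcription factors, their regulators and a sterol carrier, 5 genes for the LXR receptors and their targets, and 6 genes of fatty acid synthesis. All 35 symbols were matched to an Ensembl gene among the 46517 genes of the count tables, and all 35 were among the 14870 genes with enough reads to be tested. Polyadenylated RNA was measured in mouse intestinal stem cells, the dividing cells of the crypt base, that had been dissociated, embedded in a gel and left to form colonies for 4 days. The gel was Matrigel (a laminin-rich extract of basement membrane), a hydrogel of polyethylene glycol (PEG) labelled degradable, or a PEG hydrogel labelled non-degradable, with 3 libraries each and 9 in all. Every culture received valproic acid (an inhibitor of histone deacetylases), CHIR99021 (an inhibitor of the kinase GSK3), EGF, noggin and R-spondin, so no group shows these genes without them. The strain, age and number of mice, the composition of the PEG gels and the stiffness of any gel are not stated in the labels. Nothing there says whether the 3 libraries of a gel are separate cultures or animals. The p-values therefore measure the spread among these libraries, and that spread may be purely technical.

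As background, cholesterol is built from acetyl-CoA through mevalonate, isoprenoid units, squalene and lanosterol, and the same acetyl-CoA feeds fatty acid synthesis. SREBP-2, encoded by Srebf2, is known mainly for activating the cholesterol enzymes, and SREBP-1, encoded by Srebf1, mainly for activating fatty acid synthesis. Both are held in the endoplasmic reticulum with the escort SCAP by the INSIG proteins while sterols are plentiful, and move to the Golgi for cleavage when sterols fall. SREBPs bind sterol regulatory elements in promoters together with partners such as NF-Y, which binds the sequence CCAAT. The LXR receptors, when bound by oxysterols, raise genes for sterol export. The intestinal epithelium both absorbs sterols and makes them.

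The 9 libraries held 38016227 to 47211981 reads assigned to genes. Markers of intestinal epithelium were abundant, with 7 of 7 found and a summed level of 4985 to 6263 CPM (read counts scaled to the size of each library). Of 8 crypt base stem cell markers, 8 were found, at a summed 3236 to 3447 CPM in Matrigel, 2909 to 3078 CPM in degradable PEG and 2399.6 to 2476 CPM in non-degradable PEG. Single stem cell markers went both ways, with 3 called higher and 1 lower in degradable PEG against Matrigel, and 2 higher and 4 lower in non-degradable PEG. Markers of other epithelial cells also differed between gels. The 7 Paneth cell markers summed to 810.3 to 1607 CPM in Matrigel, 339 to 378 CPM in degradable PEG and 289.5 to 468 CPM in non-degradable PEG. The 9 enterocyte markers summed to 432 to 577, 348 to 398 and 481 to 715 CPM in the same order. Gene by gene their median log2 fold change was 0.98 in non-degradable PEG against Matrigel (8 of 9 positive, 2 called higher and 1 lower), -1.002 in degradable PEG (8 of 9 negative, 3 called lower) and 2.24 between the PEG gels. In bulk RNA a smaller share of a cell type and less RNA per cell of that type cannot be told apart. Cells outside the epithelium left little signal, at most 9.43 CPM for 7 mesenchymal, 4.22 CPM for 6 adipocyte, 3.91 CPM for 7 blood and 0.316 CPM for 5 endothelial markers summed. Counts were found for 4, 3, 5 and 4 of these markers, and those at 0 in every library were Col3a1, Dcn and Lum (mesenchymal), Lep, Fabp4 and Cfd (adipocyte), Ptprc and Hbb-bs (blood) and Cdh5 (endothelial). The blood cell marker Itgam, the 1 of its list with enough reads to be tested, was higher in non-degradable PEG than it was in Matrigel, by 1.22 (adjusted p = 0.00311). The share of mitochondrially encoded genes was 3.00 to 3.99% in Matrigel, 3.204 to 4.41% in degradable PEG and 3.92 to 4.51% in non-degradable PEG.

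Colonies in non-degradable PEG held more RNA for most of these genes than colonies in Matrigel. Of the 35 genes, 24 were higher and 1 was lower at an adjusted p under 0.05, where 9.71% of all tested genes were called higher and 7.13% lower (16.8% in either direction). The test was edgeR's quasi-likelihood test with Benjamini-Hochberg adjustment over all tested genes, in 1 fit of the 9 libraries. The median log2 fold change was 0.40 over the 35 genes and -0.002 over all tested genes. In 27 of the 35 genes the non-degradable PEG libraries all lay above the Matrigel libraries, which was so for 21.8% of tested genes, and in 1 gene all below (21.6%). Of the 18 cholesterol enzymes 17 were higher, with a median of 0.57. Of the 6 fatty acid synthesis genes 5 were higher, of the 6 SREBP genes 2, and of the 5 LXR genes none, with 1 lower. Leaving out 1 library at a time gave 16 to 25 genes higher, the fewest without replicate 3 of either gel, and 16 of the 25 calls held under each of 16 alternatives. The 1 lower call was lost without any of the 3 Matrigel or the 3 non-degradable PEG libraries, which left 0 lower. With the replicate number as a block, 25 of the 35 genes were higher and 1 lower, and 3877 of all genes were called, against 2504 without it.

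**Figure D1:**
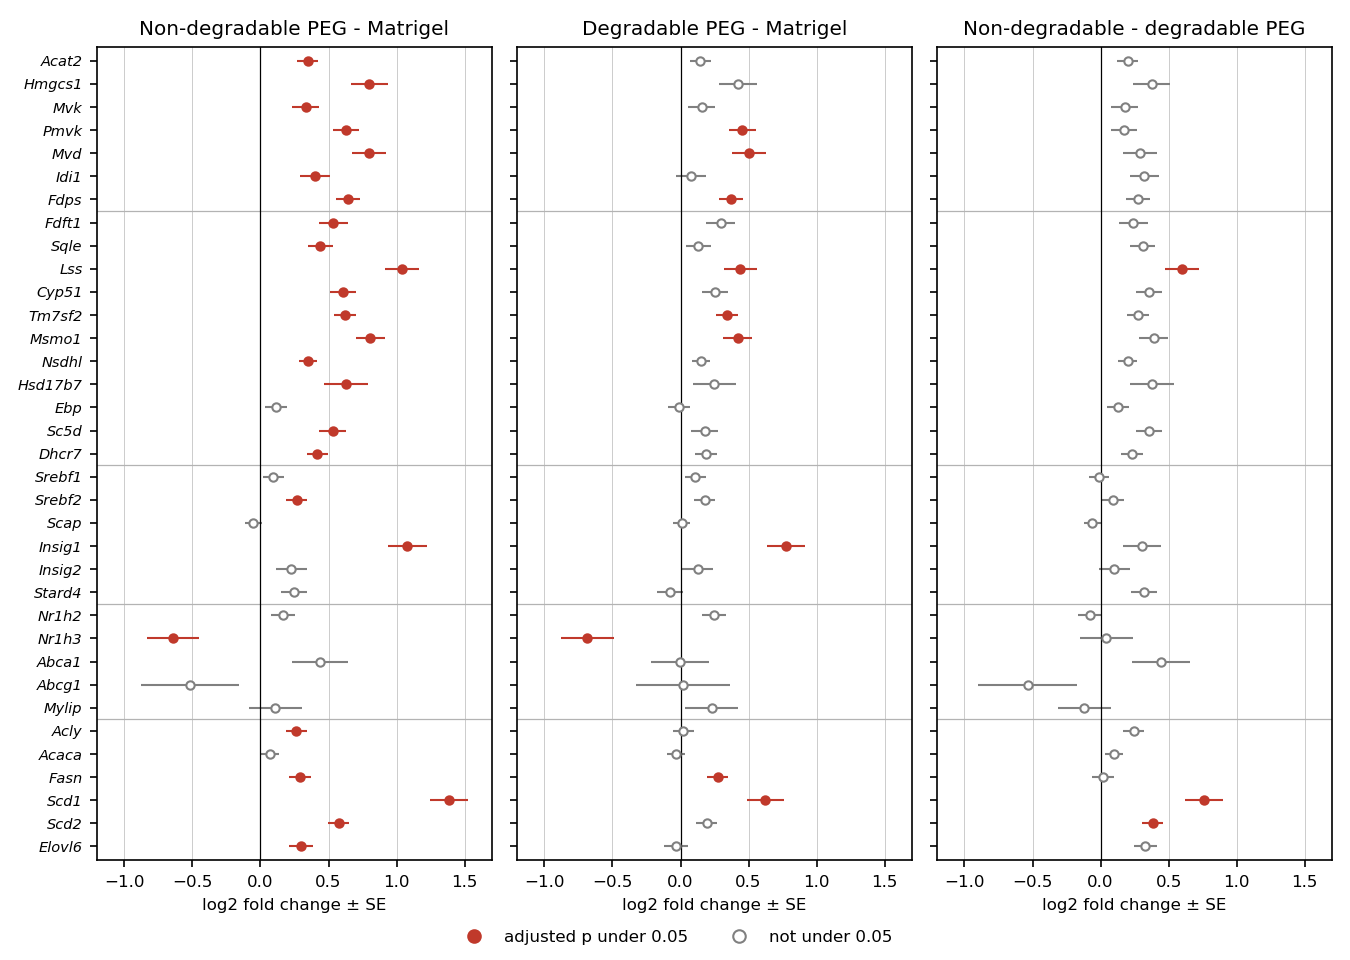
Log2 fold change ± SE of each of the 35 genes in the 3 comparisons, from 1 fit of 9 libraries (3 per gel). Filled points have an adjusted p under 0.05 (24 higher and 1 lower in non-degradable PEG against Matrigel, 9 higher and 1 lower in degradable PEG against Matrigel, and 3 higher between the PEG gels), and horizontal lines separate the groups by role.

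In degradable PEG fewer of these genes were called than in non-degradable PEG. Against Matrigel, 9 of the 35 genes were higher (Pmvk, Mvd, Fdps, Lss, Tm7sf2, Msmo1, Insig1, Fasn and Scd1) and 1 was lower (Nr1h3), where 7.42% of all tested genes were called higher and 4.79% lower (12.2% in either direction). The median log2 fold change was 0.18 over the 35 genes and -0.016 over all tested genes. The libraries of the 2 groups did not overlap in 19 genes that were higher, which was so for 15.6% of tested genes, and in 1 that was lower (14.8%). Among the 18 cholesterol enzymes, 6 were higher. This count rested on single libraries: 5, 4 or 3 genes were higher without Matrigel replicate 1, 2 or 3, and 3 were higher without degradable PEG replicate 3. Nr1h3 was called in neither direction without any Matrigel library, non-degradable PEG replicate 1 or 2, or degradable PEG replicate 2 or 3, so that 0 genes were lower. The calls of Pmvk, Insig1 and Scd1 held under each of 16 alternatives. Both PEG comparisons use the same 3 Matrigel libraries, so they are not independent of each other.

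Set directly against each other, the PEG gels differed at 3 of the 35 genes. Lss, Scd1 and Scd2 were higher in non-degradable PEG and none was lower, where 0.814% of all tested genes were called higher and 0.464% lower (1.28% in either direction). The median log2 fold change was 0.24 over the 35 genes and 0.003 over all tested genes. In 18 of the 35 genes the non-degradable PEG libraries all lay above the degradable PEG libraries, and in 0 all below. This was so for 1490 and 1342 of the 14870 tested genes. An unadjusted p under 0.05 was found for 20 of the 35 genes and for 2203 of the 14870 tested genes. The edgeR count was 0 without non-degradable PEG replicate 1 or 3 or degradable PEG replicate 1 or 2, 1 without Matrigel replicate 2 or 3, and 2 without non-degradable PEG replicate 2 or Matrigel replicate 1. With the compared groups alone in the fit it was 0, and DESeq2 called 7 genes higher. The 9 enterocyte markers were positive in 9 of 9 in this comparison, with 5 called higher and a median of 2.24, and their part in the members' differences was not tested. An F test over all 3 gels at once called 22 of the 35 genes, where 16.3% of tested genes were called (13 genes without Matrigel replicate 3 and 14 without non-degradable PEG replicate 3).

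The sums of the enzymes, of the SREBP genes and of the fatty acid genes rose from Matrigel to degradable and to non-degradable PEG. In that order the 6 SREBP genes took 1275 ± 31.3, 1442 ± 92.5 and 1610 ± 159 CPM (SD, n = 3), with overlap between the PEG gels. The 18 cholesterol enzymes together took 2690.5, 2632 and 2530.4 CPM in Matrigel, 3025, 3008 and 3553 CPM in degradable PEG and 3949, 3571 and 4575 CPM in non-degradable PEG. The lowest non-degradable PEG library lay above the highest degradable PEG library, and the lowest of those above the highest Matrigel library. The 6 fatty acid genes took 5343 ± 142 CPM in Matrigel, 6288 ± 579 CPM in degradable PEG and 8293 ± 560.2 CPM in non-degradable PEG (SD, n = 3), without overlap between the gels. Most of that step came from Scd2, whose mean went from 3433 CPM in Matrigel to 5110.4 CPM in non-degradable PEG, and Scd1, from 629.5 to 1644 CPM. The 5 LXR genes summed to 71.4 ± 3.28, 79.9 ± 7.76 and 76.2 ± 5.16 CPM, where non-degradable PEG overlapped both other gels and the lowest degradable PEG library (74.9 CPM) lay just above the highest Matrigel library (73.9 CPM). Nr1h2 made up most of this sum (57.5 CPM in Matrigel). Together the 35 genes made up 0.931% of all reads in Matrigel, 1.10% in degradable PEG and 1.40% in non-degradable PEG. Gene by gene, the mean was lowest in Matrigel and highest in non-degradable PEG for 24 of the 35 genes and for 17 of the 18 cholesterol enzymes, all but Ebp. That order was found for 20.7% of all tested genes.

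**Figure D2:**
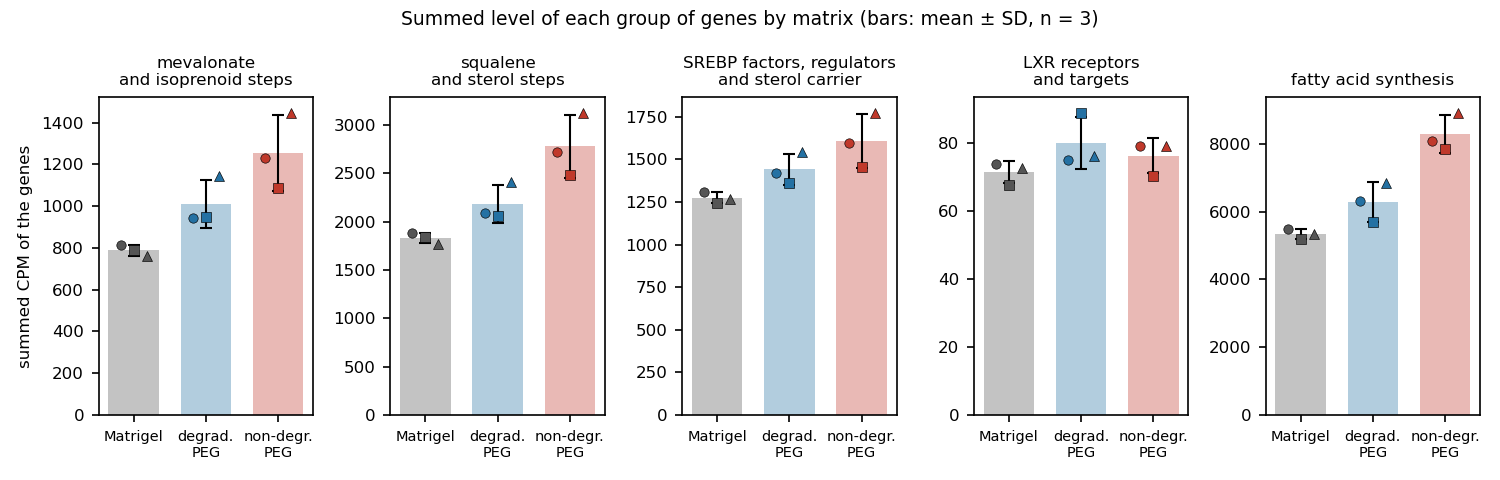
Summed level in CPM of the genes of each role in each library (circle, square and triangle for replicates 1, 2 and 3), with bars at the mean and error bars at 1 SD of 3 libraries. The means of the 2 enzyme groups, the SREBP genes and the fatty acid genes step up from Matrigel to degradable to non-degradable PEG. The PEG gels overlap each other in the mevalonate and SREBP groups. The 5 LXR genes stay between 67.7 and 88.9 CPM.

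The mevalonate and isoprenoid steps turn acetyl-CoA into farnesyl diphosphate, and non-degradable PEG held more RNA for all 7 enzymes than Matrigel did, by a median log2 fold change of 0.63. In degradable PEG 3 of the 7 were higher (Pmvk, Mvd and Fdps), with a median of 0.37. The promoters of Hmgcs1, Mvk and Mvd are shown as examples and were not picked by a rule. Each holds at least 2 NF-Y boxes, as does that of Idi1, which is not shown. Acat2 and Pmvk rose as well. The promoter of Acat2 has 0 boxes, and Pmvk has 1 box at 1 start site and 0 at the other. A link between boxes and fold change was not tested. The runs are the bases upstream of the RefSeq start site on GRCm38.p6, read 5′ to 3′ on the strand of the gene. Capitals mark the NF-Y box, CCAAT or its reverse complement ATTGG, and the form TCACNCCAC of the sterol regulatory element.
Hmgcs1, chr13:119690101-119690350, plus strand: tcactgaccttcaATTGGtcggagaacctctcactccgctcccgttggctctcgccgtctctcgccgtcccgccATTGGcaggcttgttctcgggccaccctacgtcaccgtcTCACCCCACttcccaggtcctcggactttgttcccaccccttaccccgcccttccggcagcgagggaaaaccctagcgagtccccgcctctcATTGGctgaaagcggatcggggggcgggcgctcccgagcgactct
Mvk, chr5:114444019-114444268, plus strand: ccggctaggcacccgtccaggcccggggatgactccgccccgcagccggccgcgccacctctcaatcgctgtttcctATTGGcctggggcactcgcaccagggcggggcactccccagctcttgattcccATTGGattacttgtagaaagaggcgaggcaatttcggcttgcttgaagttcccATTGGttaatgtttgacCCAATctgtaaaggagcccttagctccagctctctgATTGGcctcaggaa
Mvd, chr8:122443423-122443672, minus strand: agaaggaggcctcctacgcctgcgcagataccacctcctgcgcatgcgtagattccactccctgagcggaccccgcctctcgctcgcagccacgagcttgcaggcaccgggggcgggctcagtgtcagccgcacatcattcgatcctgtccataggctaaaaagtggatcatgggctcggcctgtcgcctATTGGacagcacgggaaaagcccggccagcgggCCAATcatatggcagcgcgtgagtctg

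Hmgcs1 encodes the cytosolic HMG-CoA synthase (ENSMUSG00000093930, chromosome 13, 119690379 to 119708260, GRCm38). It measured 441, 435 and 419.9 CPM in Matrigel, 548, 493 and 697 CPM in degradable PEG and 727, 636 and 893 CPM in non-degradable PEG. Both PEG groups lay above Matrigel in every library, and they overlapped each other. The log2 fold change was 0.80 ± 0.14 (SE) in non-degradable PEG (adjusted p = 0.00298) and 0.42 ± 0.14 in degradable PEG, where the test was missed (adjusted p = 0.0686). Over 16 alternatives the second value ran from 0.0103 to 0.234, and it passed under 7 of them: upper-quartile scaling (0.0389), no filter (0.0103), the replicate block (0.0244), the compared groups only (0.0495), DESeq2 (0.0308), and without degradable PEG replicate 2 (0.0392) or non-degradable PEG replicate 3 (0.0364). Its promoter above is the only 1 of 37 promoters of these genes with the sterol regulatory element form, at -137 to -129, among 3 NF-Y boxes.

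Mvd encodes mevalonate diphosphate decarboxylase, which makes the 5-carbon isoprenoid unit (ENSMUSG00000006517, chromosome 8, 122433601 to 122443422). It measured 64.4, 63.4 and 60.8 CPM in Matrigel, 75.0, 96.1 and 96.4 CPM in degradable PEG and 110.1, 90.4 and 127 CPM in non-degradable PEG. All 6 PEG libraries lay above all 3 Matrigel libraries. Mvd rose by 0.80 ± 0.12 in non-degradable PEG (adjusted p = 0.00172) and by 0.50 ± 0.12 in degradable PEG (0.0226). Pmvk, the kinase just before it, rose from 55.0 ± 2.58 CPM in Matrigel to 75.5 ± 7.47 CPM in degradable PEG (adjusted p = 0.0108) and 85.1 ± 9.65 CPM in non-degradable PEG (0.00153). Farnesyl diphosphate synthase, Fdps, measured 23.0, 24.6 and 22.8 CPM in Matrigel, 27.7, 32.5 and 31.1 CPM in degradable PEG and 35.4, 34.4 and 40.4 CPM in non-degradable PEG, with no overlap between any 2 gels. It rose by 0.65 ± 0.09 (8.09e-04) and by 0.37 ± 0.09 (0.0198) in non-degradable and degradable PEG. Exons of Fdps overlap Gm43738 on the same strand over 1124 bases, so part of its reads is uncertain.

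Smaller rises in non-degradable PEG were those of Acat2, an acetyl-CoA acetyltransferase (0.35 ± 0.08, adjusted p = 0.0117), Mvk, mevalonate kinase (0.33 ± 0.10, 0.0378), and Idi1, isopentenyl diphosphate isomerase (0.40 ± 0.11, 0.0287). In degradable PEG these 3 gave 0.15, 0.16 and 0.08 and did not pass (adjusted p from 0.249 to 0.686). The promoter of Mvk above has 5 NF-Y boxes, the largest number among these genes. These calls were the weakest of the group. Acat2 missed the test without replicate 3 of Matrigel or of non-degradable PEG (adjusted p from 0.00102 to 0.0557 over 16 alternatives). Mvk missed it without any Matrigel library or without non-degradable PEG replicate 1 or 3 (0.0173 to 0.154), and Idi1 without Matrigel replicate 1 or 3 or non-degradable PEG replicate 1 or 3 (0.0084 to 0.121). In degradable PEG, Mvd missed it without any Matrigel library or without degradable PEG replicate 2 or 3 (0.00129 to 0.0828), and Fdps without Matrigel replicate 1 or 3 or degradable PEG replicate 2 or 3 (0.00371 to 0.0686).

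The squalene and sterol steps join farnesyl units, close the ring and trim lanosterol to cholesterol. Of these 11 enzymes, 10 rose from Matrigel to non-degradable PEG (median 0.54) and 3 to degradable PEG (Lss, Tm7sf2 and Msmo1, median 0.25). Over all tested genes, 9.71% and 7.42% were called higher in these gels. Lanosterol synthase, Lss, closes the sterol ring and had the largest fold change of the group (ENSMUSG00000033105, chromosome 10, 76531588 to 76557138). It measured 205, 201 and 202 CPM in Matrigel, 264, 239.7 and 319.9 CPM in degradable PEG and 406, 353 and 490.2 CPM in non-degradable PEG. The 3 gels did not overlap, and the spread was far wider in the PEG gels (SD 41.1 and 69.2 CPM) than in Matrigel (1.93 CPM). The log2 fold change was 1.04 ± 0.12 in non-degradable PEG (adjusted p = 3.72e-04), 0.44 ± 0.12 in degradable PEG (0.0407) and 0.60 ± 0.12 between the PEG gels (0.0439). The difference between the PEG gels missed the test with a filter of 10 CPM, with the compared groups only, without any Matrigel library, without non-degradable PEG replicate 1 or 3 or without degradable PEG replicate 1 or 2 (0.000339 to 0.177 over 16 alternatives). The rise in degradable PEG was lost without any Matrigel library, without non-degradable PEG replicate 1 or without degradable PEG replicate 3 (0.00471 to 0.147). Exons of Lss overlap 4930483K19Rik on the opposite strand over 381 bases, and the strand setting of the counting is not given. The bases upstream of its start site, ending before the annotated gene, hold 1 NF-Y box in capitals.
Lss, chr10:76531355-76531587, plus strand: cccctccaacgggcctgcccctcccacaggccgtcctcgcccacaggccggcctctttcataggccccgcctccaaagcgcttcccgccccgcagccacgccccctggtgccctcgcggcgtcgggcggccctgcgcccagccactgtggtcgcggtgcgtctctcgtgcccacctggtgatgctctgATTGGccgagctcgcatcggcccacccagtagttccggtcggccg

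Msmo1, the sterol-C4-methyl oxidase, measured 219, 227 and 216 CPM in Matrigel, 271, 281 and 334 CPM in degradable PEG and 370.2, 340.1 and 449 CPM in non-degradable PEG. No 2 gels overlapped. The rise was 0.81 ± 0.11 in non-degradable PEG (adjusted p = 6.78e-04) and 0.42 ± 0.11 in degradable PEG (0.0272), and the latter missed the test without any Matrigel library or without degradable PEG replicate 3 (0.00389 to 0.105 over 16 alternatives). Between the PEG gels Msmo1 differed by 0.39 ± 0.11 (0.127), and passed in DESeq2 (0.0332), with the replicate block (0.0441) and with no filter (0.0202). Tm7sf2, a sterol reductase, measured 66.0, 60.6 and 62.6 CPM in Matrigel, 76.2, 82.3 and 81.2 CPM in degradable PEG and 102, 85.3 and 104 CPM in non-degradable PEG. It rose by 0.62 ± 0.08 (6.45e-04) in non-degradable PEG and by 0.34 ± 0.08 (0.0199) in degradable PEG. The second call was lost without Matrigel replicate 2 or 3 or degradable PEG replicate 3 (0.00415 to 0.0664). Tm7sf2 shares 532 exon bases with Vps51 on the same strand.

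The other 7 enzymes that rose in non-degradable PEG did not pass in degradable PEG, and the difference between the PEG gels passed for none of them in the edgeR test (adjusted p from 0.119 to 0.33). Cyp51 and Sc5d passed there with no filter (0.0267 and 0.0328) and in DESeq2 (0.0309 and 0.0388), and Sc5d with the replicate block (0.0481). Cyp51, the lanosterol demethylase, went from 307 ± 22.8 CPM in Matrigel to 366 ± 36.2 CPM in degradable PEG and 468 ± 46.0 CPM in non-degradable PEG, a rise of 0.61 ± 0.10 in the latter (adjusted p = 0.00184). Squalene epoxidase, Sqle, a rate-controlling oxygenase, measured 303, 301 and 288 CPM in Matrigel, 306, 311 and 358 CPM in degradable PEG and 388, 364 and 457 CPM in non-degradable PEG. The lowest degradable PEG library lay just above the highest Matrigel library, and the rise in non-degradable PEG was 0.44 ± 0.09 (0.00894). Squalene synthase, Fdft1, rose by 0.54 ± 0.11 (0.00681), and Sc5d, a sterol desaturase, by 0.53 ± 0.10 (0.00408). Dhcr7, which makes cholesterol from its last precursor, rose by 0.42 ± 0.08 (0.00544) and the dehydrogenase Nsdhl by 0.35 ± 0.07 (0.00578). Hsd17b7, a sterol ketone reductase, rose by 0.63 ± 0.16 (0.0223) and was the most scattered, at 115, 72.8 and 118 CPM in degradable PEG. Its call was lost without Matrigel replicate 2 or 3 or non-degradable PEG replicate 1 or 3 (0.000434 to 0.0893), and in degradable PEG it passed only without replicate 2 of that gel (0.0243). Fdft1 passed in degradable PEG without replicate 1 of that gel (0.0424, against 0.101 with it).

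Ebp, the sterol isomerase, was the 1 cholesterol enzyme that did not pass in any comparison. It measured 75.2, 70.7 and 65.5 CPM in Matrigel, 64.7, 76.7 and 68.2 CPM in degradable PEG and 76.7, 74.3 and 77.9 CPM in non-degradable PEG. These ranges overlap, and the log2 fold change against Matrigel was 0.11 ± 0.08 in non-degradable PEG (adjusted p = 0.344) and -0.01 ± 0.08 in degradable PEG (0.943). Exons of Fdft1 overlap Ctsb over 774 bases and those of Cyp51 overlap Akap9 over 166 bases, in both cases on the opposite strand.

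**Figure D3:**
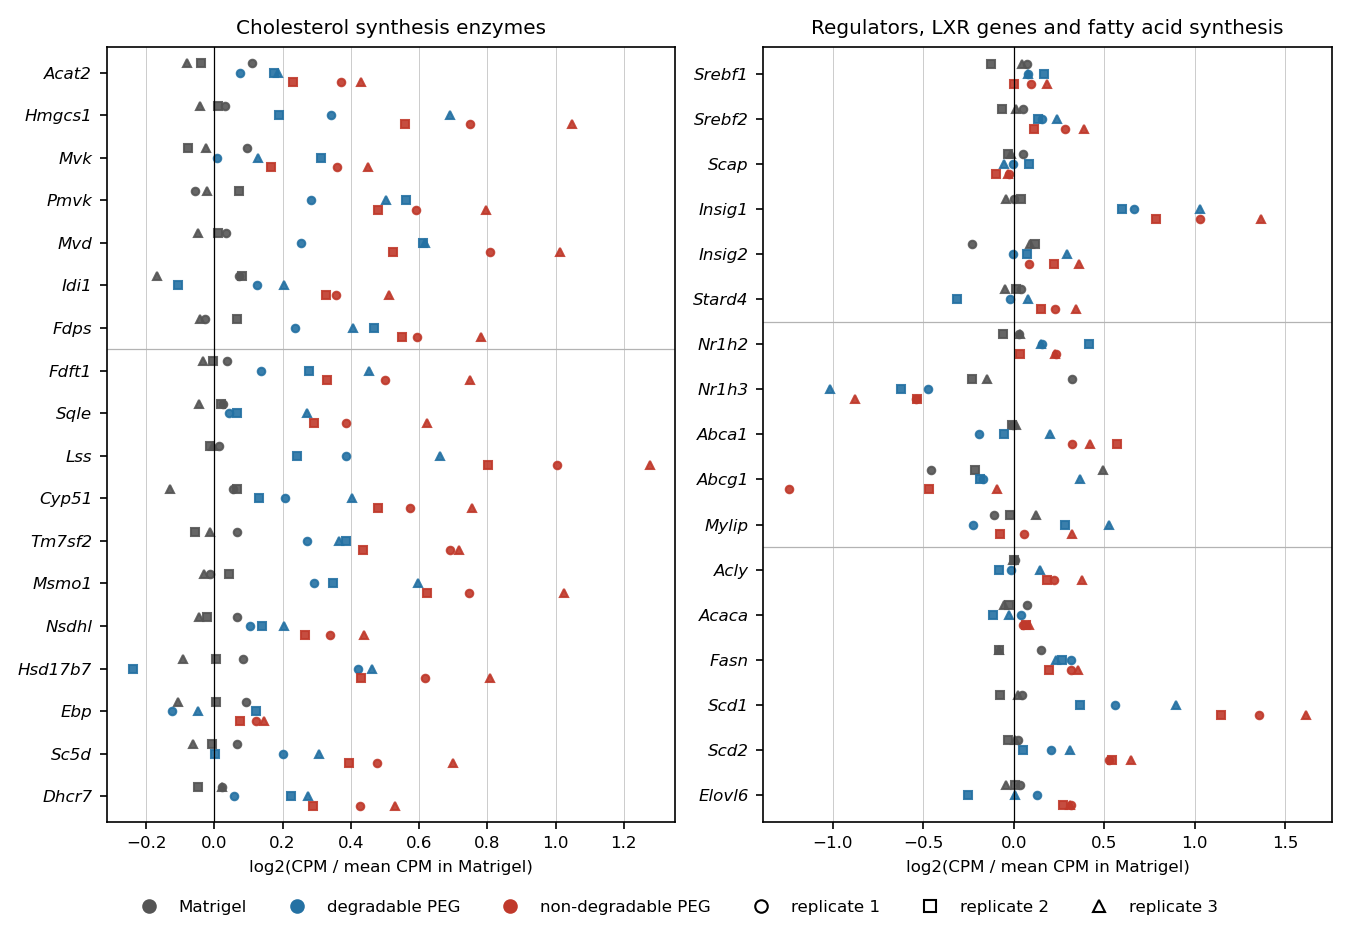
Level of each of the 35 genes in each library, as the log2 of its CPM over its mean CPM in Matrigel, with colours for gels and shapes for replicates. In non-degradable PEG the triangle (replicate 3) is the highest and the square (replicate 2) the lowest for all 18 cholesterol enzymes in the left panel.

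In non-degradable PEG the libraries kept the same order over all cholesterol enzymes. There replicate 3 was the highest and replicate 2 the lowest for 18 of the 18 cholesterol enzymes, while replicate 3 was the highest for 39.1% and replicate 2 the lowest for 35.5% of all tested genes. The order was looser in the other gels. In degradable PEG, replicate 3 was the highest for 13 of the 18 (30.6% of all tested genes) and replicate 2 for 5. In Matrigel, replicate 3 was the lowest for 13 of the 18 (33.0% of all) and replicate 1 the highest for 12 (38.1%). The mitochondrially encoded share was the highest in replicate 3 of each gel, at 3.99% in Matrigel, 4.41% in degradable PEG and 4.51% in non-degradable PEG. The 9 enterocyte markers, all 9 of them found, were the highest in replicate 3 of both PEG gels (398 and 715 CPM) and in replicate 1 of Matrigel (577 CPM). The part of either measure in the enzyme levels was not tested. Without non-degradable PEG replicate 3, 16 of the 35 genes were called higher in that gel than in Matrigel.

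Among the 6 SREBP genes, Insig1 and Srebf2 were higher in non-degradable PEG and Insig1 alone in degradable PEG. The shares of all tested genes called higher were 9.71% and 7.42%. Insig1 is a well-known SREBP target whose product holds SCAP in the endoplasmic reticulum (ENSMUSG00000045294, chromosome 5, 28071363 to 28078662). It measured 163, 167 and 157 CPM in Matrigel, 257, 246 and 331 CPM in degradable PEG and 332, 281 and 419 CPM in non-degradable PEG. All PEG libraries lay above all Matrigel libraries, and the PEG gels overlapped each other. Insig1 rose by 1.08 ± 0.14 in non-degradable PEG (adjusted p = 6.57e-04) and by 0.77 ± 0.14 in degradable PEG (0.00488), and both calls held under each of 16 alternatives. The difference between the PEG gels was 0.31 ± 0.14 (0.344). The bases upstream of its start site, ending before the annotated gene, hold 1 NF-Y box at -216 to -212. As for all positions here, these count back from the RefSeq start site, which for Insig1 lies beyond the end of the run shown.
Insig1, chr5:28071162-28071362, plus strand: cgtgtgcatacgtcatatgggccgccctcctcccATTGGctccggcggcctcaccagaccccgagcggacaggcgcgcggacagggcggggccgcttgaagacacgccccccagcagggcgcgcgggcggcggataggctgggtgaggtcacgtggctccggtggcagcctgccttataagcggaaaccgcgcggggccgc

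Srebf2, the SREBP of the cholesterol enzymes, measured 374, 344 and 363 CPM in Matrigel, 402, 395 and 425 CPM in degradable PEG and 439, 389 and 473 CPM in non-degradable PEG. It rose by 0.27 ± 0.08 in non-degradable PEG (adjusted p = 0.0409), a call that was lost without any Matrigel library or without non-degradable PEG replicate 1 or 3 (0.0151 to 0.172 over 16 alternatives). Srebf1, the SREBP of fatty acid synthesis, gave 0.10 ± 0.08 and 0.11 ± 0.08 in non-degradable and degradable PEG (adjusted p = 0.416 and 0.396). The escort Scap stood at 141 ± 4.21 CPM in Matrigel, 142 ± 6.82 CPM in degradable PEG and 136 ± 3.64 CPM in non-degradable PEG, and did not pass in any comparison. Insig2, the paralog of Insig1, measured 33.4, 42.6 and 41.9 CPM in Matrigel and 41.6, 45.8 and 50.5 CPM in non-degradable PEG. These groups overlap, with a difference of 0.23 ± 0.11 (adjusted p = 0.194), and Insig2 passed once the replicate number was a block (0.0386). Stard4, a cytosolic sterol carrier, differed from Matrigel by 0.24 ± 0.10 in the non-degradable gel (0.103) and by -0.08 ± 0.10 in the degradable gel (0.662), and the former passed with the compared groups only (0.0255) and without degradable PEG replicate 2 (0.0272, range 0.0255 to 0.317). Exons of Scap and Srebf1 overlap genes on the opposite strand.

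None of the 5 LXR genes was called higher in a PEG gel. All libraries lay above Matrigel for 2 of them in non-degradable PEG (Nr1h2 and Abca1) and 1 in degradable PEG (Nr1h2). This was so for 21.8% and 15.6% of tested genes. Nr1h3, which encodes LXR alpha, was the 1 member that fell, from 9.60, 6.55 and 6.94 CPM in Matrigel to 5.55, 4.997 and 3.80 CPM in degradable PEG and 5.28, 5.31 and 4.19 CPM in non-degradable PEG. Every PEG library lay below every Matrigel library, and Matrigel replicate 1 lay well above the other two. Nr1h3 fell by 0.64 on the log2 scale in non-degradable PEG (SE 0.19, adjusted p = 0.0432) and by 0.68 in degradable PEG (SE 0.19, 0.042). Over 15 alternatives the adjusted p ran from 0.00911 to 0.159 and from 0.00657 to 0.157. The former call was lost without any Matrigel or any non-degradable PEG library, and the latter under upper-quartile scaling, with the compared groups only, or without any Matrigel library, non-degradable PEG replicate 1 or 2 or degradable PEG replicate 2 or 3. Nr1h3 shares 34 exon bases with Gm13783 on the same strand. Nr1h2, which encodes LXR beta, measured 57.5 ± 2.08 CPM in Matrigel, 68.2 ± 7.45 CPM in degradable PEG and 64.7 ± 5.02 CPM in non-degradable PEG, and did not pass (adjusted p = 0.0977 and 0.211). The LXR targets Abca1 and Abcg1, both sterol exporters, were low, at 0.72 ± 0.00592 and 0.562 ± 0.203 CPM in Matrigel. Neither passed. Mylip, which marks lipoprotein receptors for breakdown, stood at 4.86 ± 0.395 CPM in Matrigel and did not pass either. The adjusted p against Matrigel ran from 0.169 to 0.991 for these 3 targets. Abca1 and Abcg1 had only 297 and 190 reads over all libraries. The 3 targets therefore do not show whether LXR targets outside this group differed between the gels. The sterol exporter Abcg5 is not in this group and is described below with the uptake genes.

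Of the 6 fatty acid genes, 5 were higher in non-degradable PEG and 2 (Scd1 and Fasn) in degradable PEG. Over all tested genes the shares called higher were 9.71% and 7.42%. The desaturases Scd1 and Scd2 had the largest fold changes in non-degradable PEG. Scd1 inserts a cis bond into saturated fatty acids (ENSMUSG00000037071, chromosome 19, 44394455 to 44407879). It measured 651, 597 and 641 CPM in Matrigel, 927, 813 and 1172 CPM in degradable PEG and 1612, 1391 and 1929 CPM in non-degradable PEG. The 3 gels did not overlap. The log2 fold change was 1.39 ± 0.14 in non-degradable PEG (adjusted p = 1.76e-04), 0.62 ± 0.14 in degradable PEG (0.0137) and 0.76 ± 0.14 between the PEG gels (0.0292). The difference between the PEG gels was lost with the compared groups only and without non-degradable PEG replicate 1 or 3 or degradable PEG replicate 1 or 2 (2.31e-05 to 0.118 over 16 alternatives), while both rises against Matrigel held under each alternative.

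Its neighbour Scd2 (ENSMUSG00000025203, chromosome 19, 44293674 to 44306864) measured 3487, 3363 and 3450.04 CPM in Matrigel, 3955, 3550.04 and 4257 CPM in degradable PEG and 4940.2, 5008 and 5383 CPM in non-degradable PEG. The gels again did not overlap, and non-degradable PEG stood clear of both others. Scd2 rose by 0.57 ± 0.08 in non-degradable PEG (adjusted p = 6.75e-04) and differed by 0.38 ± 0.08 between the PEG gels (0.0391), with 0.19 ± 0.08 in degradable PEG (0.131). The difference between the PEG gels was lost with a filter of 10 CPM, with the compared groups only, and without Matrigel replicate 2 or 3, any non-degradable PEG library, or degradable PEG replicate 1 or 2 (0.00056 to 0.129), and the value in degradable PEG passed without replicate 2 of that gel (0.0336, range 0.0336 to 0.381). Scd1 and Scd2 are close paralogs, so reads that fit both are uncertain, and Scd2 shares 61 exon bases with Mir5114.

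The enzymes that supply and build the fatty acid chain gave smaller values. Fasn, fatty acid synthase, measured 629, 536 and 537 CPM in Matrigel, 705, 683 and 668 CPM in degradable PEG and 708, 648 and 725 CPM in non-degradable PEG. Both PEG gels lay above Matrigel to about the same extent, with 0.29 ± 0.08 in non-degradable (adjusted p = 0.0297), 0.27 ± 0.08 in degradable PEG (0.0465) and 0.02 ± 0.08 between them (0.937). The former call was lost without Matrigel replicate 2 or 3 or non-degradable PEG replicate 1 or 3 (0.00837 to 0.115). The latter was lost with the compared groups only and without any PEG library of either kind or without Matrigel replicate 2 or 3 (0.0183 to 0.156). Acly, which makes cytosolic acetyl-CoA from citrate, rose by 0.26 ± 0.08 in non-degradable PEG (0.0395) and Elovl6, an elongase, by 0.30 ± 0.09 (0.0396), with 0.02 and -0.03 in degradable PEG. The Acly call was lost without any Matrigel library or without non-degradable PEG replicate 1 or 3 (0.0166 to 0.166). The Elovl6 call was lost without any Matrigel or non-degradable PEG library or without degradable PEG replicate 3 (0.00441 to 0.116). Between the PEG gels Elovl6 differed by 0.33 ± 0.09 (0.116), and passed with no filter (0.038) and in DESeq2 (0.0305). Acaca, acetyl-CoA carboxylase alpha, stood at 104 ± 4.92 CPM in Matrigel, 102 ± 5.61 CPM in degradable PEG and 109 ± 1.2 CPM in non-degradable PEG, and did not pass (adjusted p = 0.507 and 0.798 against Matrigel). The bases upstream of the Fasn start site are shown as a further example. They hold 3 NF-Y boxes, 2 of which overlap as the run of capitals that reads the same on both strands.
Fasn, chr11:120824548-120824797, minus strand: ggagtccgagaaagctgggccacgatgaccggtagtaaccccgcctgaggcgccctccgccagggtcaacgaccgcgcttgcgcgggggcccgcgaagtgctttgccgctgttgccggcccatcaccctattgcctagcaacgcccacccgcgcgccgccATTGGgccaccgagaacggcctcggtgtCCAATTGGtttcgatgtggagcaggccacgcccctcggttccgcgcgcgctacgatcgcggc

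Upstream motifs were counted in the 250 bases before each start site, on both strands, with overlapping matches counted. RefSeq held promoters for 28 of the 35 genes, with 37 start sites, and none in its table for Abcg1, Fdft1, Fdps, Scd1, Scd2, Sqle and Stard4. The NF-Y box was present in 56.8% of these 37 promoters, in 33.8% of all 32851 promoters and in 35.3% of the 13789 promoters of tested genes. Among the cholesterol enzymes it was present in 14 of 18 promoters (77.8%) and in 14 of 15 genes, all but Acat2. Ebp, which did not pass in any comparison, has 2 boxes. The fatty acid genes Acly, Acaca and Elovl6 have none in this window, and Fasn has 3. The sterol regulatory element form was present in 2.70% of the 37 promoters and in 1.05% of all promoters. The stricter form TCACCCCAC is the one in the Hmgcs1 promoter and was present in 0.496% of all promoters. Only these 2 forms were searched, so a promoter without a match may still hold a sterol regulatory element of another form. A match is a description of the sequence, and no binding was measured here.

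**Figure D4:**
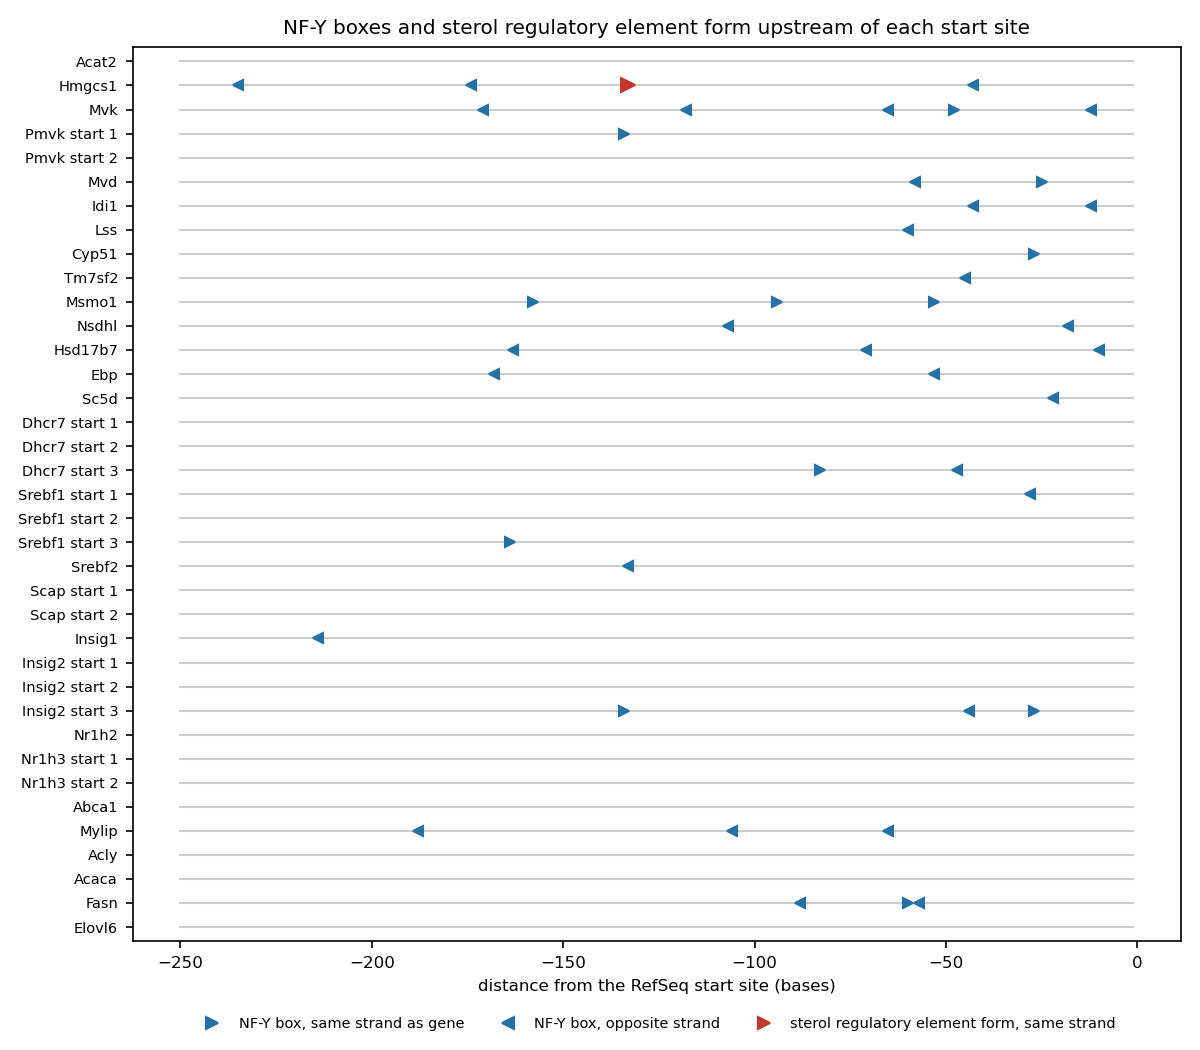
Position of each NF-Y box (blue, pointing right on the strand of the gene and left on the opposite strand) and of the sterol regulatory element form (red) in the 250 bases upstream of 37 RefSeq start sites of 28 genes. Of the 15 cholesterol enzyme genes 14 carry at least 1 box, while Acat2, Scap, Nr1h2, Nr1h3, Abca1, Acly, Acaca and Elovl6 carry none.

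Compared per length, as RPKM (CPM divided by the length of the merged exons in kilobases), the levels ranged widely. Scd2 was by far the most abundant, at 628 ± 11.6 RPKM in Matrigel and 935 ± 43.7 RPKM in non-degradable PEG. Scd1 followed with 129 ± 5.81 and 336 ± 55.4 RPKM. The most abundant cholesterol enzyme was Hmgcs1, at 94.1 ± 2.41 and 164 ± 28.4 RPKM, ahead of Cyp51 at 69.6 ± 5.17 and 106 ± 10.4 RPKM. At the low end of the enzymes stood Idi1 with 4.76 ± 0.455 RPKM in Matrigel, and Fdps with 5.58 ± 0.225 RPKM. Part of the reads of Fdps is uncertain because its exons overlap Gm43738 on the same strand. Reads aligned more than once were counted for no gene. Srebf2 (50.2 ± 2.11 RPKM) and Srebf1 (40.1 ± 2.96 RPKM) were of similar level. Abca1 and Abcg1 reached at most 0.0942 and 0.0785 RPKM on average in any gel. Levels per length depend on the length used. With the longest coding transcript, chosen after seeing the data, Lss in Matrigel went from 18.8 to 43.4 RPKM, Fdps from 5.58 to 17.0 RPKM, Msmo1 from 35.9 to 108 RPKM and Sqle from 53.6 to 108 RPKM. By that length Cyp51 stood at 78.1 RPKM in Matrigel, below Msmo1 and Sqle, while Hmgcs1 stayed above them at 125 RPKM. The order of the enzymes after Hmgcs1 therefore depends on the length.

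Other genes of the same pathways were taken from 5 lists and counted the same way. For comparison, 9.71% of all tested genes were called higher and 7.13% lower in non-degradable PEG against Matrigel. In degradable PEG these shares were 7.42% and 4.79%. Of 13 other sterol and isoprenoid enzymes, 1 was higher and 2 were lower against Matrigel in each PEG gel. The higher gene was Por, which passes electrons to Cyp51 and Sqle, with 131, 124 and 140.4 CPM in Matrigel, 157, 190.3 and 203 CPM in degradable PEG and 229, 197 and 271 CPM in non-degradable PEG. It rose by 0.82 ± 0.12 (adjusted p = 0.00127) and 0.48 ± 0.12 (0.0264) in non-degradable and degradable PEG. The lower genes were Pdss1, of the ubiquinone side chain (-0.45 ± 0.11, 0.0154), and the mitochondrial thiolase Acat1 (-0.24 ± 0.07, 0.0452). The median of this list was 0.002. Of 11 genes of SREBP processing and sterol sensing, none was higher in a PEG gel and 1 was lower in each. The protease Mbtps1 fell by 0.24 in non-degradable PEG (SE 0.07, 0.0449), and Erlin1 fell by 0.41 in degradable PEG (SE 0.07, 0.00256). With the replicate block, 3 genes of this list were called in non-degradable PEG, among them Erlin1 (0.0375, against 0.0587 without the block), which also passed without degradable PEG replicate 2 (0.0323). Several of these calls were lost under alternatives. Mbtps1 was lost under upper-quartile scaling, with a filter of 10 CPM and without any Matrigel or non-degradable PEG library (up to 0.168), Acat1 in non-degradable PEG under RLE and upper-quartile scaling, with the filter of 10 CPM and without Matrigel replicate 1 or 3, any non-degradable PEG library or degradable PEG replicate 3 (up to 0.169), Pdss1 without non-degradable PEG replicate 3 (0.067), Acat1 in degradable PEG without Matrigel replicate 1 or 3 (up to 0.0712), and Por in degradable PEG without Matrigel replicate 1 or 2 or degradable PEG replicate 2 or 3 (up to 0.0991). Of the first list, 1 call was left in non-degradable PEG without replicate 3 of that gel and 1 in degradable PEG without Matrigel replicate 1. The replicate block gave 4 calls of that list in non-degradable PEG. The count for SREBP processing was 0 in non-degradable PEG without any library of that gel or of Matrigel, and 2 without degradable PEG replicate 2, and in degradable PEG it was 2 without replicate 1 of that gel.

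The list of 19 genes of sterol uptake, transport and storage had 4 genes higher and 1 lower in non-degradable PEG. Of all tested genes, 9.71% were called higher and 7.13% lower in that gel, and 7.42% and 4.79% in degradable PEG. The lipoprotein receptor Vldlr measured 13.98, 16.6 and 21.2 CPM in Matrigel, 26.0, 23.7 and 38.8 CPM in degradable PEG and 48.7, 37.8 and 57.9 CPM in non-degradable PEG. No PEG library fell to the Matrigel level. Vldlr rose by 1.48 ± 0.21 (adjusted p = 0.00103) and 0.77 ± 0.21 (0.0373), the latter lost without non-degradable PEG replicate 1, Matrigel replicate 1 or 2, or degradable PEG replicate 3 (up to 0.135). The phospholipid acyltransferase Lpcat3 rose by 0.44 ± 0.09 in non-degradable PEG (0.00652) and the sterol transporter Gramd1a fell by 0.59 (SE 0.18, 0.0499), a call lost under upper-quartile scaling, with no filter, without any Matrigel or non-degradable PEG library or without degradable PEG replicate 1 (up to 0.176). The calls of this list fell to 3 without any Matrigel library or non-degradable PEG replicate 3, and to 2 without non-degradable PEG replicate 1. With the replicate block they numbered 7. In degradable PEG 3 genes of the list were higher, 0 without Matrigel replicate 1, 1 without Matrigel replicate 2 or 3 and 5 without non-degradable PEG replicate 3 or degradable PEG replicate 2. Between the PEG gels the sterol exporter Abcg5, a gene of absorptive enterocytes, was higher in non-degradable PEG, with 70.0, 69.1 and 89.3 CPM against 46.3, 44.7 and 45.2 CPM (0.75 ± 0.14, 0.0333). That call was lost without non-degradable PEG replicate 1 or 3 or any degradable PEG library (up to 0.151). Enterocyte markers moved with it, 5 of 9 called higher and 9 of 9 positive in the same comparison, summing to 481 to 715 against 348 to 398 CPM, and their part in it was not tested.

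Of the 26 tested genes on the list of other fatty acid and lipid synthesis, 10 were higher and none lower in non-degradable PEG (median 0.24), and 4 were higher in degradable PEG (median 0.07). The shares of all tested genes called higher were 9.71% and 7.42%. The count in non-degradable PEG was 6 without Matrigel replicate 1, 5 without non-degradable PEG replicate 3 and 14 with the replicate block. Acacb, the acetyl-CoA carboxylase of the mitochondrial surface, measured 3.97, 3.58 and 5.50 CPM in Matrigel, 8.23, 9.005 and 13.3 CPM in degradable PEG and 14.8, 12.9 and 22.2 CPM in non-degradable PEG. It rose by 1.93 ± 0.25 (adjusted p = 6.04e-04) and 1.23 ± 0.25 (0.00927), whereas its cytosolic paralog Acaca above did not pass. Mid1ip1, which activates acetyl-CoA carboxylase, rose by 0.82 ± 0.12 (0.00137) and 0.77 ± 0.12 (0.0022). Acss2, which makes acetyl-CoA from acetate, rose by 0.62 ± 0.13 in non-degradable PEG (0.0107), and the phosphatidate phosphatase Lpin1 by 1.03 ± 0.24 (0.0136), the latter lost without non-degradable PEG replicate 3 or Matrigel replicate 1 (up to 0.0534). Of 6 adipocyte markers the lipid droplet gene Cidec alone could be tested, and it rose from 1.32 ± 0.0467 CPM in Matrigel to 2.47 ± 0.227 CPM in degradable PEG (adjusted p = 0.032) and 3.14 ± 1.04 CPM in non-degradable PEG (0.0053). Lep, Fabp4 and Cfd were at 0, and Adipoq and Plin1 did not exceed 0.0495 CPM.

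Fatty acid oxidation runs the other way and breaks fatty acids down. In non-degradable PEG 3 of 20 were higher and none lower than in Matrigel, and in degradable PEG none was higher and 5 were lower, where 16.8% and 12.2% of all tested genes were called in either direction. Leaving out non-degradable PEG replicate 3 or Matrigel replicate 1 left 1 call in the former comparison, and the replicate block gave 4. The latter had 1 call without Matrigel replicate 1 or 3, and 3 without Matrigel replicate 2 or degradable PEG replicate 1 or 2. Pdk4, a kinase that spares pyruvate when fat is burnt, measured 0.999, 0.884 and 1.89 CPM in Matrigel and 4.20, 2.41 and 7.98 CPM in non-degradable PEG (1.95 ± 0.48, adjusted p = 0.0198). The peroxisomal enzyme Ehhadh also rose there (0.49 ± 0.12, 0.0181). Pdk4 and Ehhadh were lost without Matrigel replicate 1 or 2 or non-degradable PEG replicate 3 (up to 0.0862 and 0.0801). Set directly against each other, the PEG gels gave 19 of 20 positive differences in this list and 0 calls by edgeR, with 9 at an unadjusted p under 0.05 and 2 calls by DESeq2. Over all tested genes, 7541 of 14870 differences were positive and 2203 had an unadjusted p under 0.05.

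**Figure D5:**
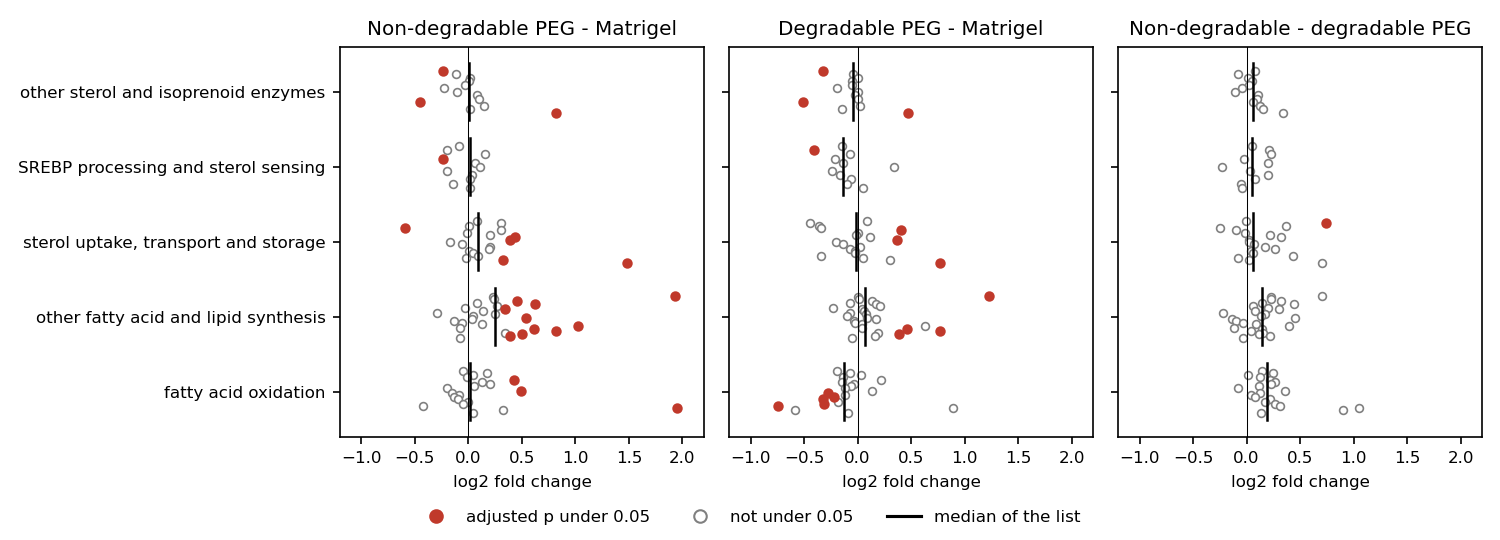
Log2 fold change of each tested gene of the 5 other pathway lists in the 3 comparisons, with filled points at an adjusted p under 0.05 and a bar at the median of each list. The list of other fatty acid and lipid synthesis has 10 filled points to the right of 0 in non-degradable PEG against Matrigel, while the medians of the other sterol lists lie near 0. Of all tested genes, 9.71% were called higher in that comparison.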

How the data were processed

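Polyadenylated RNA was sequenced in 9 libraries, 3 from each of 3 gels, with a stranded kit per the labels' protocols. The authors deposited raw read counts per gene for each library. Trimming with cutadapt 1.3, alignment with STAR 2.4.2a to GRCm38 and counting with HTSeq 0.6.1 are named in the submitters' processing notes. The annotation and the strand setting of the counting were not stated in these sources. Tally rows stayed out of library sizes (reads in no feature 7.29 to 11.2%, ambiguous reads 1.09 to 1.16%, and 65.2 to 71.8 reads aligned more than once per 100 assigned reads). Symbols, positions and exon lengths came from GENCODE on GRCm38. Genes were kept by edgeR's filterByExpr, scaled by TMM and fitted with edgeR 4.0.16 (R 4.3.3) in 1 quasi-likelihood model with a mean per gel. Calls have a Benjamini-Hochberg adjusted p under 0.05, and SE is the absolute log2 fold change over the root of F. The script was tested on simulated counts. The alternatives were RLE and upper-quartile scaling, no filter, a filter of 10 CPM, the replicate number as a block, the compared groups only, each library left out in turn, and DESeq2 1.42.0. A different gene length for RPKM was added after seeing the data.

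The 35 genes and all lists were chosen with earlier results of these data known. All 35 are named, and of each other list up to 4 called genes with the largest fold change, except results that are not reported here. Cidec was named after its values were seen. Whether equal replicate numbers pair libraries was checked from their deviations from the group means. Libraries of non-degradable PEG and Matrigel with the same number correlated at 0.331, 0.176 and 0.186, every one above 0.1, the bound used here for a pairing. Those with different numbers correlated at -0.257 to 0.0386. The fit without the block leaves this pairing out. All values come from the fit without the block unless the block is named. For members and pathway lists, the blocked value stands beside a result of this comparison where it changes a call. The labels do not say what the number marks.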

Additional observations from a re-analysis of the deposited data

How the results depend on the processing

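No called member reversed direction. Without one library at a time, members called higher numbered 16 to 25 (non-degradable PEG against Matrigel), 3 to 9 (degradable PEG against Matrigel) and 0 to 3 (between PEG gels), members called lower 0 to 1, 0 to 1 and 0 to 0, all genes 1189 to 3247, 1086 to 2395 and 19 to 242, and members over the 3 gels 13 to 22. In the same way the lists of other sterol enzymes, SREBP processing, uptake, other fatty acid synthesis and oxidation gave 1 to 4, 0 to 2, 2 to 5, 5 to 12 and 1 to 3 calls in non-degradable PEG against Matrigel, and 1 to 3, 1 to 2, 0 to 5, 3 to 5 and 1 to 5 in degradable PEG against Matrigel. Between the PEG gels uptake gave 0 to 1.

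In non-degradable PEG against Matrigel, the filter of 10 CPM gave 1511 genes, 0 members lower (Nr1h3 was not tested there) and 0 of SREBP processing. That list had 0 under upper-quartile scaling, 2 with the compared groups only and 3 with the replicate block, which called 3877 genes. In degradable PEG against Matrigel, 0 members were lower and 3 oxidation genes were called under upper-quartile scaling, the 10 CPM filter (948 genes) and the compared groups only. The replicate block gave 2783 genes, 3 of SREBP processing and 5 of uptake. No filter gave 5 of uptake, and DESeq2 gave 5 of uptake and 2 of SREBP processing. Between the PEG gels, members higher numbered 7 with no filter, 1 with the 10 CPM filter, 5 with the replicate block, 0 with the compared groups only and 7 with DESeq2, and all genes 521, 91, 542 and 511 (no filter, 10 CPM, replicate block and DESeq2). Uptake had 3 under no filter, block and DESeq2, other fatty acid synthesis 3 (no filter) and 4 (block), and oxidation 1 (no filter), 4 (block) and 2 (DESeq2). The cause was not tested. By the bound of 0.1 at every number, same-numbered libraries were not found paired in the last 2 comparisons. Their correlations were 0.258, 0.0712 and 0.226 for degradable PEG against Matrigel, and 0.288, 0.0197 and 0.511 between the PEG gels. The block changed no other call of a member in the first comparison than that of Insig2.

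Uncalled values near 0 changed sign. Upper-quartile scaling gave 0.032 (Ebp), 0.036 (Abca1), 0.0095 (Acaca) and 0.0082 (Elovl6) in degradable PEG against Matrigel and -0.0077 (Fasn) between the PEG gels, the 10 CPM filter 0.015 (Ebp), and no filter -0.0022 (Scap). Leaving out 1 library at a time gave these log2 ranges. For degradable PEG against Matrigel they were Ebp -0.084 to 0.042, Scap -0.027 to 0.040, Stard4 -0.16 to 0.031, Abca1 -0.12 to 0.078, Abcg1 -0.19 to 0.35, Acly -0.049 to 0.068, Acaca -0.068 to 0.010, Elovl6 -0.12 to 0.070. For non-degradable PEG against degradable PEG they were Srebf1 -0.058 to 0.034, Nr1h2 -0.13 to 0.011, Nr1h3 -0.10 to 0.16, Mylip -0.31 to 0.058, Fasn -0.015 to 0.065, Mbtps1 -0.077 to 0.032, Mid1ip1 -0.12 to 0.16. For non-degradable PEG against Matrigel they were Mylip -0.012 to 0.20.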
